A study of Rattus norvegicus with 9 samples.

Results

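Sirtuins are enzymes that remove acetyl and other acyl groups from lysines of proteins and use up NAD+ as they do so. The Sirt1 to Sirt7 transcripts and Nampt, which encodes the rate-limiting enzyme of the salvage route that makes NAD+ again from nicotinamide, were followed in primary rat nucleus pulposus cells, the cells that fill the soft centre of spinal discs. These 8 genes were taken by their names from the deposited count table of 22324 genes, and all 8 were present and had counts in every library. SIRT1, SIRT6 and SIRT7 are known mainly as nuclear proteins, SIRT2 as a cytoplasmic one, and SIRT3, SIRT4 and SIRT5 as mitochondrial ones. In ageing tissues SIRT1 and SIRT6 have been studied as brakes on senescence and inflammation, and NAD+ supply as a limit on all members.

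Poly(A) RNA was sequenced in 9 libraries, 3 in each of 3 groups, all of them from wild-type primary cells grown in high-glucose medium with serum. By its name NC is read here as the untreated control, although the labels of all samples, NC too, carry the same doxorubicin protocol. SEN cells had received doxorubicin, which damages DNA and makes cells senescent, at 200 nM for 24 h and a further 6 days in fresh medium, and BNPMT cells were labelled as the same senescence with an intervention of that name, whose dose, timing and full name the labels do not give. The labels do not say whether the replicates were separate cultures, so the error behind each p-value is that between libraries and may be technical.

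Total counts were 31206834 to 41971877 per library, and of the defining markers of the labelled cell type Col2a1 was at 4571 ± 119 CPM in NC (CPM being the count scaled to the library's total, SD, n = 3) and Acan at 587 ± 10.4 CPM. Over the 3 NC libraries Krt19 had 26 counts, the notochordal marker Tbxt 11, Car12 9 and Krt18 2, and Krt8 was at 4.16 CPM. The summed level of the 11 nucleus pulposus markers in the files was 5408 to 5674 CPM for NC, 7277 to 7404 for SEN and 2522 to 2745 for BNPMT, most of it Col2a1. In the order NC, SEN and BNPMT, Pax1 was at 135, 52.7 and 149 CPM, Car3 at 175, 79.7 and 129 and Foxf1 at 30.6, 17.1 and 29.2. These went the other way from that sum in both comparisons with SEN, and of them only Pax1 was higher in BNPMT than in NC. Of the markers of other cells, the summed level of 5 smooth muscle genes was 4459 to 4499 CPM for NC, 1325 to 1499 for SEN and 2550 to 2801 for BNPMT. Des did not follow that sum, at 28.4, 28.4 and 54.9 CPM in the same groups. The summed level of 4 genes of macrophages and leukocytes was 11.2 to 12.6, 25.4 to 29.2 and 16.3 to 18.4 CPM. It was a sum of opposite moves, with Cd68 at 0.464, 22.6 and 0.527 CPM and Cd14 at 11.4, 4.04 and 16.6 CPM. For 4 endothelial genes the sum was 0.865 to 1.25, 4.67 to 5.16 and 0.909 to 1.31 CPM. It too held opposite moves, with Pecam1 at 0.0165, 4.04 and 0.0254 CPM and Tek at 0.962, 0.441 and 0.586 CPM. The 2 erythroid genes summed to at most 0.0285 CPM in any library. The endothelial marker Cdh5 was at 0 counts in NC and BNPMT and had 2 in SEN, and the part of these marker changes in the results was not tested. In such bulk samples fewer cells of a type and less RNA per cell cannot be told apart. Libraries departed from their groups along gene length: Spearman's rho between length and departure, across genes that are not independent, was -0.42 in SEN 1, with 0.26 and 0.23 in SEN 2 and SEN 3. It was 0.51 in BNPMT 1, with -0.43 and -0.32 in BNPMT 2 and BNPMT 3, and -0.2 to 0.15 in NC.

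Changes were tested with edgeR's quasi-likelihood test over 14956 genes and called at an adjusted p below 0.05 (Benjamini-Hochberg over all genes tested). Log2 changes are scaled by trimmed means of M-values (TMM), whereas CPM and FPKM (CPM per kilobase of gene length) are per total count, and the difference matters in comparisons with SEN. Scaling by total counts put the median gene at a log2 change of -0.46 in SEN against NC, whereas TMM put it at -0.01. In BNPMT against SEN the median gene was at 0.52 by total counts and 0.02 by TMM, and in BNPMT against NC at 0.06 and 0.00. Taking out the trend of each library with gene length, an alternative used below, also moved the median gene. It was then at -0.25 in SEN against NC, 0.26 in BNPMT against SEN and 0.01 in BNPMT against NC. Under TMM 49.4% of the calls in SEN against NC were higher, and 30.1% with total counts. For BNPMT against SEN these shares were 50.5% and 69.0%.

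The promoter sequences of Sirt1, the member that changed most, and Sirt4, the one with the steepest fall, are shown for the composition of their bases and the elements they hold. They are from RefSeq's table for the build GRCr8, which differs from the mRatBN7.2 build named for the counts, and run from 250 bases before to 50 after the gene start. Sirt1 lies at chr20:25305703-25306002 on the plus strand and Sirt4 at chr12:46791680-46791979 on the plus strand, and capitals mark the E-box CACGTG, the element bound by the clock factors and by MYC.
Sirt1: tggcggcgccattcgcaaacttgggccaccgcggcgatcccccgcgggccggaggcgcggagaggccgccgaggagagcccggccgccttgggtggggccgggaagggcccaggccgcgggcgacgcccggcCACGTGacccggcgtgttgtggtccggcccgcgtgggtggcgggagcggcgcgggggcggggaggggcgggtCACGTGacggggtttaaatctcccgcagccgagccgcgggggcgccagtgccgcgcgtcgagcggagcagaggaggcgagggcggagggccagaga
Sirt4: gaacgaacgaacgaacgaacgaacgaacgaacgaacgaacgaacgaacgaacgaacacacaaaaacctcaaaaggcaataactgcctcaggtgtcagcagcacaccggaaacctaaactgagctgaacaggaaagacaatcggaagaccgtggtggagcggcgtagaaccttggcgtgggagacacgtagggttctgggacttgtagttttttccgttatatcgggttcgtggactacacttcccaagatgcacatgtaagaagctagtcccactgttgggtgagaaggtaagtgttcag
The Sirt1 window held the E-box 2 times, beginning at positions -118 and -46 from the gene start, and the other 5 members with a matching entry (Sirt2, Sirt3, Sirt4, Sirt5 and Sirt7) held none. Among 27457 rat promoters 6.65% held the element and 0.554% held it 2 or more times. The GC content was 78.7% for Sirt1, above that of 98.6% of the promoters, and 49.7% for Sirt4, beside a median of 52.3%. A further 9 elements were searched on both strands. TGACTCA (AP-1, in 4.53% of promoters), TGACGTCA (CRE, 1.91%), GAANNTTC (heat shock unit, 8.34%), CCGGAAGT (ETS, 4.01%), TATAAA (14.3%) and GCGTGGGCG (EGR, 0.59%) had no match in these windows. ACGTG, the core of the hypoxia element (19.7%), matched in Sirt2, Sirt4 and Sirt7, and in Sirt1 inside its E-boxes. GGGCGG, the GC box (34.9%), matched in Sirt1, Sirt3 and Sirt7, and ATTGG, the inverted CCAAT box (37.7%), in Sirt2, Sirt3 and Sirt5. A match is a run of letters and was not tested as a site.

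The first comparison, SEN against NC, addresses the effect of senescence after doxorubicin. Sirt1, Sirt2 and Nampt rose, Sirt3, Sirt4, Sirt6 and Sirt7 fell, and Sirt5 did not pass the test. Thus 7 of 8 members were called, beside 76.1% of all genes tested. Of the members 3 were called higher and 4 lower, beside 37.6% and 38.5% of all genes, so a call in either direction was common among all genes. The CPM ranges of the groups did not overlap for any of the 8 members, 3 higher and 5 lower. The same held for 83.4% of all genes tested, 25.3% higher and 58.1% lower. The median log2 change of the members was -0.19, beside -0.01 for all genes tested.

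**Figure D1:**
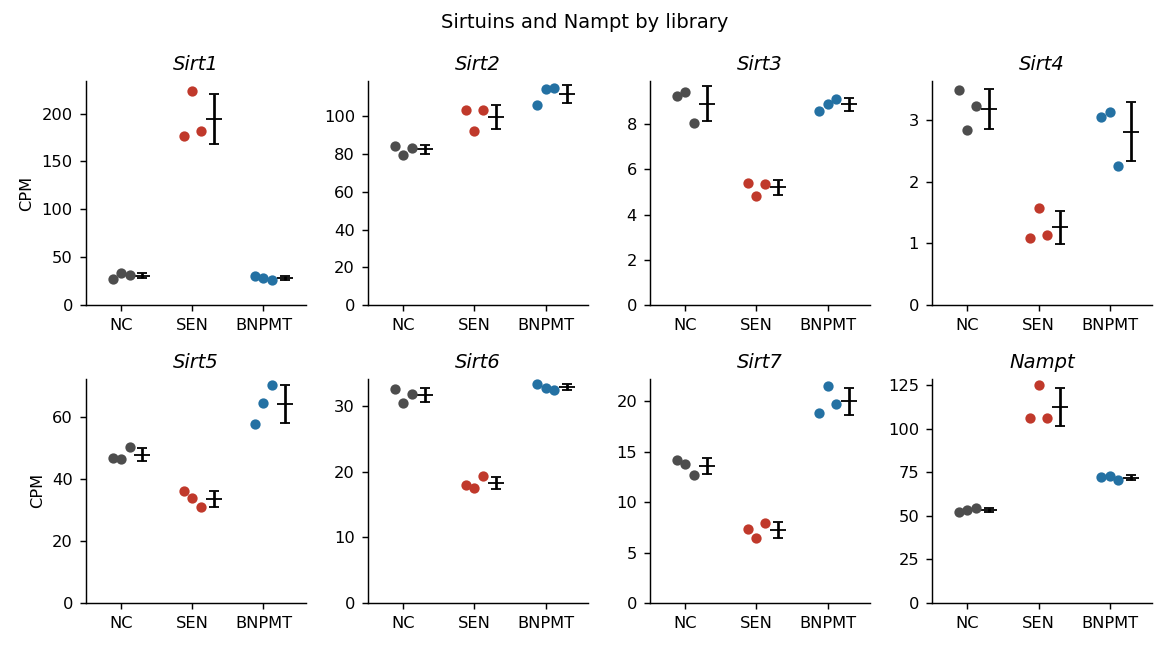
CPM of the 7 sirtuins and Nampt in each library of NC, SEN and BNPMT (coloured points) with the mean and SD of each group (black bars), each panel with its own axis from 0. Sirt1 in SEN stands at 177 to 224 CPM, far above 26.1 to 33.2 CPM in the 6 other libraries.

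Sirt1 encodes the nuclear deacetylase that acts on histones and on transcription factors such as FOXO proteins. The NC libraries held 27.8, 33.2 and 31.9 CPM and the SEN libraries 177, 224 and 182 CPM. All SEN libraries lay above all NC libraries, with SEN 2 the highest of them. The log2 change was 3.10 ± 0.10 (SE, edgeR quasi-likelihood, adjusted p = 4.13e-12), an 8.58-fold rise under TMM and a ratio of mean CPM of 6.28. It was larger than that of 93.6% of all genes tested and was 2.98 without SEN 2. The spread of Sirt1 between the SEN libraries, a coefficient of variation of 13.3%, exceeded the 1.22% that counting alone gives.

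Nampt stood next to Sirt1 in the size of its rise. The NC libraries held 52.1, 53.4 and 54.7 CPM and the SEN libraries 106, 125 and 106 CPM, again with SEN 2 highest and with no overlap. The log2 change was 1.52 ± 0.07 (adjusted p = 1.13e-10, edgeR), a 2.87-fold rise under TMM.

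Sirt2, the cytoplasmic deacetylase known for acting on tubulin, moved less. Its level was 84.2, 79.4 and 83.3 CPM in NC and 103, 92.1 and 103 CPM in SEN, and the log2 change was 0.73 ± 0.06 (adjusted p = 1.50e-07, edgeR). With total counts the change was 0.28 (adjusted p = 0.000882), so most of its size depended on the scale, whereas its direction and call did not.

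The other nuclear sirtuins fell. Sirt6, whose product acts on chromatin at telomeres and DNA breaks, had 32.7, 30.5 and 31.9 CPM in NC, compared with 18, 17.5 and 19.4 CPM in SEN. Its log2 change was -0.34 ± 0.07 (adjusted p = 0.00034, edgeR). Sirt7, the nucleolar sirtuin tied to ribosomal RNA genes, had 14.2, 13.8 and 12.7 CPM in NC and 7.29, 6.41 and 7.95 CPM in SEN, and its log2 change was -0.45 ± 0.10 (adjusted p = 0.001, edgeR). For both genes every SEN library lay below every NC library. With total counts the changes were -0.79 and -0.91.

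The mitochondrial members were lower in SEN on the CPM scale, and by less under TMM. Sirt3, the main mitochondrial deacetylase, gave 9.24, 9.44 and 8.05 CPM in the NC libraries and 5.39, 4.84 and 5.37 CPM in the SEN ones, a log2 change of -0.32 ± 0.11 (adjusted p = 0.014, edgeR). Sirt4, which restrains glutamate dehydrogenase, was the least abundant member, with 3.48, 2.84 and 3.22 CPM for the NC libraries and 1.09, 1.57 and 1.13 CPM for the SEN ones. Its log2 change was -0.88 ± 0.20 (adjusted p = 0.00135, edgeR). This rested on 40 to 49 counts per SEN library, for which counting alone gives a coefficient of variation of 15.1%, beside 20.9% between the libraries. With total counts the changes were -0.77 for Sirt3 and -1.34 for Sirt4.

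Sirt5, the desuccinylase of the mitochondrial matrix, was the member whose call depended on the scale. Its level was 46.8, 46.2 and 50.1 CPM in NC and 36, 33.7 and 30.8 CPM in SEN, with no overlap. Under TMM the log2 change was -0.05 ± 0.08 and did not pass the test (adjusted p = 0.564, edgeR). Total counts made it a call at -0.51 (adjusted p = 5.14e-05), and so did taking out the trend of each library with gene length, at -0.31 (adjusted p = 0.000288). The median gene was at -0.46 and -0.25 in these 2 settings. The adjusted p of Sirt5 ran from 5.14e-05 to 0.999 in 20 alternatives. A fall relative to the other genes of the library was thus not shown for Sirt5.

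**Figure D2:**
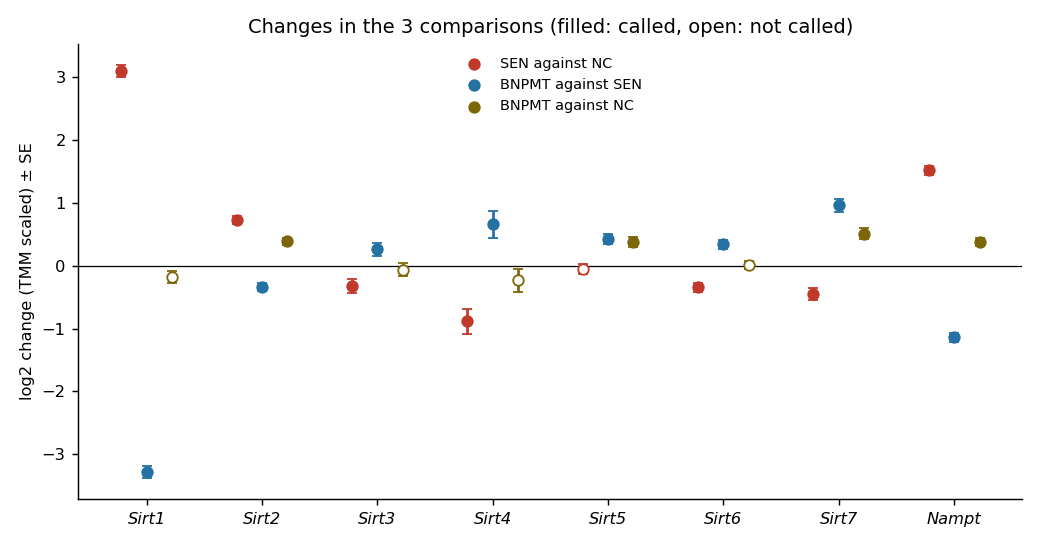
Log2 changes (TMM scaled, ± SE) of each member in SEN against NC, BNPMT against SEN and BNPMT against NC, filled where called and open where not. Sirt1 and Nampt stand out in both comparisons with SEN, at 3.10 and 1.52 and at -3.28 and -1.14, and the comparison of BNPMT with NC holds no change beyond 0.51.

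The comparison of BNPMT with SEN asks what the intervention changed in senescent cells. Sirt1, Nampt and Sirt2 were lower in BNPMT, and Sirt3, Sirt4, Sirt5, Sirt6 and Sirt7 were higher. All 8 members were called, beside 80.6% of all genes tested. Of the members 3 were called lower and 5 higher, beside 39.9% and 40.7% of all genes. The CPM ranges of the groups did not overlap for 8 of 8 members, 6 higher and 2 lower, which held for 82.5% of all genes tested, 57.3% higher and 25.2% lower. The median log2 change of the members was 0.30, beside 0.02 for all genes. This comparison and the one of SEN with NC share the SEN libraries, so the values of each are given side by side without a test of their relation.

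Sirt1 was at 30.3, 28.7 and 26.1 CPM in BNPMT, against 177 to 224 in SEN. The log2 change was -3.28 ± 0.10 (adjusted p = 2.33e-12, edgeR), a 9.70-fold lower level under TMM and a ratio of mean CPM of 0.146. With total counts the log2 change of Sirt1 was -2.77. Nampt was at 72.5, 73 and 70.4 CPM in BNPMT, between the levels of the other groups and overlapping neither, with a log2 change from SEN of -1.14 ± 0.07 (adjusted p = 1.72e-09, edgeR). Nampt was -0.64 with total counts. Sirt7 had the largest rise of the members, from 6.41 to 7.95 CPM in SEN to 18.9, 21.5 and 19.7 CPM in BNPMT, with a log2 change of 0.96 ± 0.10 (adjusted p = 7.00e-07, edgeR). Sirt5 was at 57.7, 64.4 and 70 CPM in BNPMT, all above the SEN range, with a log2 change of 0.43 ± 0.08 (adjusted p = 0.000278, edgeR). Sirt6 was at 33.4, 32.8 and 32.5 CPM, all above the SEN range, and its log2 change was 0.34 ± 0.07 (adjusted p = 0.000264, edgeR). With total counts these changes were 1.47 for Sirt7, 0.93 for Sirt5 and 0.85 for Sirt6.

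The direction of Sirt2 between BNPMT and SEN turned with the scale. Its level was 106, 114 and 115 CPM in BNPMT, above the 92.1 to 103 CPM of SEN, yet under TMM the log2 change was -0.34 ± 0.06 (adjusted p = 0.00021, edgeR). Total counts gave 0.16 (adjusted p = 0.0241), and a fit free of the length trend gave -0.24 (adjusted p = 0.000432). The median gene was at 0.52 and 0.26 in these 2 settings. Sirt3, at 8.59, 8.89 and 9.13 CPM in BNPMT, had a log2 change of 0.26 ± 0.11 close to the threshold (adjusted p = 0.0341, edgeR). That call ended when SEN 2 was left out (adjusted p = 0.101), likewise BNPMT 2 (adjusted p = 0.062) and BNPMT 3 (adjusted p = 0.0806), and in 5 further settings. In all 20 alternatives its adjusted p was 6.81e-06 to 0.118. Sirt4, at 3.04, 3.13 and 2.26 CPM in BNPMT, had a log2 change of 0.66 ± 0.21 (adjusted p = 0.0098, edgeR). Its call was lost when SEN 1 and BNPMT 1 were left out together (0.51, adjusted p = 0.0784).

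**Figure D3:**
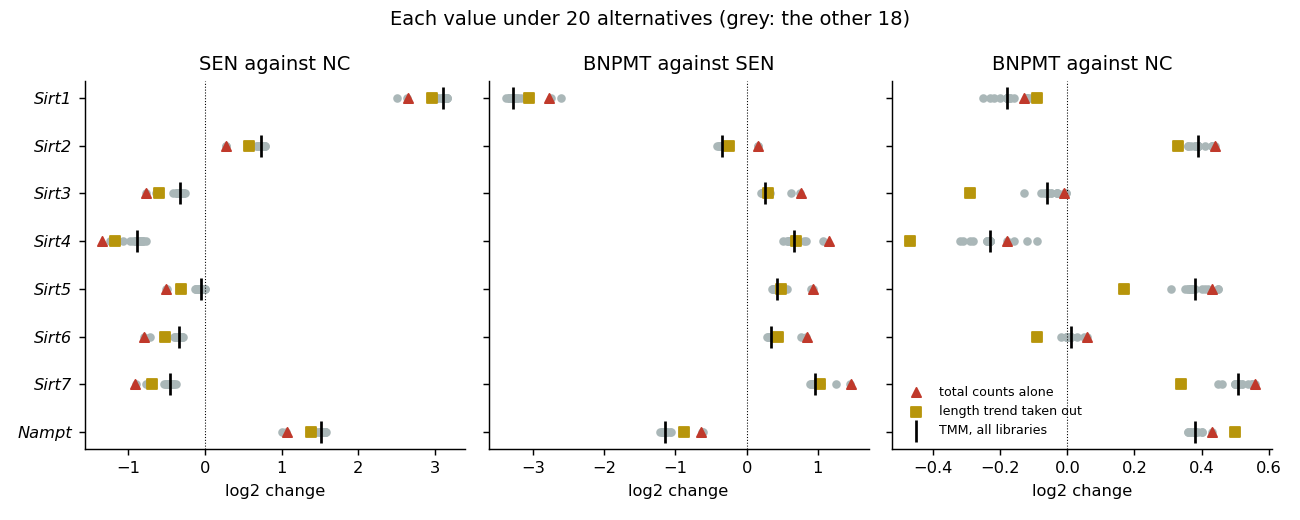
Log2 change of each member in the 3 comparisons under TMM with all libraries (black bar) and under 20 alternatives, with total counts as red triangles and the length trend taken out as yellow squares. Total counts move most members by about the shift of all genes, and for Sirt2 in BNPMT against SEN the triangle lies at 0.16, across 0 from the bar at -0.34.

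The comparison of BNPMT with NC asks how far treated cells differed from untreated ones. Sirt7, Sirt2, Nampt and Sirt5 were higher in BNPMT, and no member was called lower, which makes 4 of 8 called, beside 52.8% of all genes tested. The 4 called higher stand beside 26.3% of all genes, and the 0 called lower beside 26.5%. The CPM ranges of the groups did not overlap for 4 of 8 members, 4 higher and 0 lower, which held for 61.7% of all genes tested, 35.3% higher and 26.4% lower. Sirt7 had a log2 change of 0.51 ± 0.09 (adjusted p = 0.00053, edgeR), Sirt2 of 0.39 ± 0.06 (adjusted p = 0.000217), Nampt of 0.38 ± 0.07 (adjusted p = 0.00036) and Sirt5 of 0.38 ± 0.08 (adjusted p = 0.0017). For these genes every BNPMT library lay above every NC library. Once the length trend was removed the change of Sirt5 was 0.17 (adjusted p = 0.0374) and that of Sirt7 0.34.

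Sirt1, Sirt3, Sirt4 and Sirt6 did not pass the test in BNPMT against NC, and the ranges of the groups overlapped for all of them. Sirt1 had a log2 change of -0.18 ± 0.10 (adjusted p = 0.141, edgeR), with 26.1 to 30.3 CPM in BNPMT and 27.8 to 33.2 CPM in NC. Without SEN 1 and BNPMT 1 it was called lower at -0.23 (adjusted p = 0.0416). The 20 alternatives gave Sirt1 an adjusted p of 0.0416 to 0.39 there. Sirt4 had a log2 change of -0.23 ± 0.18 (adjusted p = 0.318). Sirt6 had one of 0.01 ± 0.06 (adjusted p = 0.956), the smallest of the members, and its sign depended on the setting. Sirt3 had a log2 change of -0.06 ± 0.10 (adjusted p = 0.669), and became a call at -0.29 once the length trend was removed (adjusted p = 0.0237). The count of members called lower was 0 with edgeR, 0 with DESeq2's Wald test and 0 at an unadjusted p below 0.05 with edgeR.

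The order of the members by level was read from FPKM, which allows for gene length. In NC it was Sirt2 at 30.9 ± 0.943 FPKM, Sirt5 at 27.7 ± 1.21, Sirt6 at 13.1 ± 0.462, Nampt at 12.1 ± 0.296, Sirt1 at 7.72 ± 0.708, Sirt7 at 7.07 ± 0.402, Sirt3 at 5.62 ± 0.474 and Sirt4 at 2.09 ± 0.211 (SD, n = 3). Of these neighbours Sirt1 and Sirt7 overlapped in range. In SEN Sirt1 stood highest at 48.4 ± 6.42 FPKM, above Sirt2 at 37.5 ± 2.45 and Nampt at 25.3 ± 2.42, followed by Sirt5 at 19.5 ± 1.51 and Sirt6 at 7.57 ± 0.407. At the low end Sirt7 and Sirt3 overlapped in SEN, at 3.76 ± 0.402 and 3.28 ± 0.198 FPKM, above Sirt4 at 0.832 ± 0.174. In BNPMT Sirt2 led again at 41.9 ± 1.78 FPKM with Sirt5 next at 37.2 ± 3.57, ranges that overlapped, and Sirt1 stood sixth of the list at 7.08 ± 0.533, below Sirt7 at 10.4 ± 0.686.

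The make-up of the sirtuin transcripts, a ratio within each library that no scaling between libraries moves, changed with Sirt1. Of the summed FPKM of the 7 sirtuins Sirt1 made up 7.30%, 8.94% and 8.34% in the NC libraries. It made up 37.0%, 44.8% and 38.3% in those of SEN, and 6.75%, 5.98% and 5.36% in those of BNPMT. Sirt2 made up 32.8 ± 0.559%, 31.1 ± 2.85% and 35.6 ± 0.085% in the same groups (SD, n = 3). Sirt5 made up 29.4 ± 0.973%, 16.1 ± 1.26% and 31.6 ± 1.83%, though a share moves with Sirt1 even where the other gene does not. The FPKM ratio of Sirt1 to Sirt2 was 0.219, 0.277 and 0.254 in the NC libraries. It was 1.14, 1.61 and 1.17 in those of SEN and 0.190, 0.167 and 0.151 in those of BNPMT, so that Sirt1 exceeded Sirt2 in all SEN libraries and in none of the others. The summed FPKM of the 6 sirtuins without Sirt1 was 86.5 ± 1.94 for NC libraries, 72.4 ± 3.21 for SEN and 111 ± 5.41 for BNPMT. Unlike the shares and ratios, this sum is per total count and moves with the scaling. On that scale the median gene had a log2 change of -0.46 in SEN against NC and 0.52 in BNPMT against SEN.

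**Figure D4:**
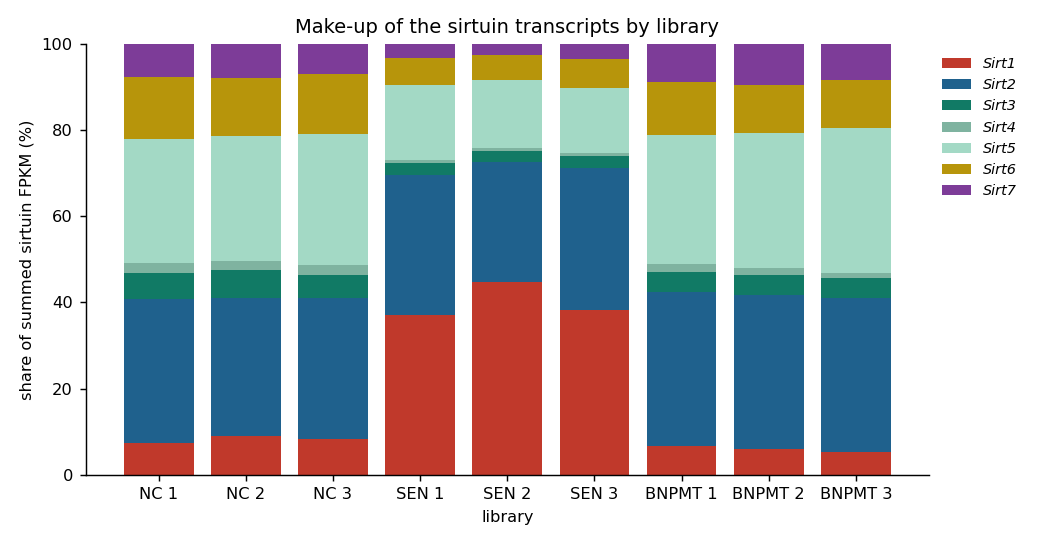
Share of each sirtuin in the summed FPKM of the 7 sirtuins, stacked from 0 to 100% for each of the 9 libraries. Sirt1 (red) takes 37.0 to 44.8% in the SEN libraries and 5.36 to 8.94% in the others.

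The counts of called genes in the following lists stand beside the shares of all genes tested. Under TMM these were 37.6% higher and 38.5% lower in SEN against NC and 40.7% higher and 39.9% lower in BNPMT against SEN. With total counts 3667 of the 14956 genes were called higher and 8513 lower in SEN against NC, and 8575 and 3857 in BNPMT against SEN. Of 12 tested genes of NAD synthesis and salvage 1 was higher, 4 lower and 7 not called in SEN against NC, with a median log2 change of -0.11 (0 higher and 9 lower with total counts). Slc25a51, which encodes the carrier that brings NAD+ into mitochondria, fell from 92.9 ± 3.17 to 29.5 ± 2.45 CPM (log2 change -1.21 ± 0.07) and was at 83.9 ± 5.63 CPM in BNPMT. Nadsyn1, the NAD synthetase gene, fell from 10.2 ± 1.08 to 4.85 ± 0.214 CPM, and Nmnat1, the nuclear enzyme that turns the product of NAMPT into NAD+, from 12.4 ± 1.78 to 6.70 ± 0.0309 CPM (log2 changes -0.62 ± 0.10 and -0.43 ± 0.13). Nnt, the mitochondrial transhydrogenase gene, had a log2 change of -0.28 ± 0.05. The gene that rose was Nt5e, which encodes the surface nucleotidase CD73, at 0.65 ± 0.21, named after its value was seen. In BNPMT against SEN 9 of the 12 were higher and 1, Nt5e, lower (11 and 1 with total counts).

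The other consumers of NAD+ and the genes that clear nicotinamide were mostly lower in SEN. Of 18 tested genes 13 fell and 3 rose, with a median log2 change of -0.71, beside -0.01 for all genes. With total counts 14 fell and 0 rose, beside 8513 called lower and 3667 higher of all 14956 genes tested. Parp1, the enzyme that marks DNA breaks with poly(ADP-ribose), was at 83.8 ± 3.32 CPM in NC and fell to 10.9 ± 0.395 in SEN (log2 -2.49 ± 0.06, adjusted p = 3.32e-13, edgeR). It stood at 85.9 ± 1.27 CPM in BNPMT. Parp14, a mono-ADP-ribosyltransferase gene, fell by 2.56 on the log2 scale, Nnmt, which methylates nicotinamide, by 1.88, and Cd38, the NAD-degrading surface enzyme, by 1.75. Parp6, Parp8 and Tnks were called higher under TMM at 0.38, 0.43 and 0.31, but were at -0.08, -0.03 and -0.14 with total counts. Once the length trend was removed Tnks was at 0.05 (adjusted p = 0.458), with the median gene at -0.25. The call of Tnks also ended when NC 2, NC 3, SEN 2 or SEN 3 was left out (adjusted p of 0.0557, 0.0875, 0.0735 and 0.0873). In BNPMT against SEN 13 of the 18 were higher and 5 lower (14 and 1 with total counts).

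The zinc-dependent histone deacetylases, a family that acts without NAD+, had calls in both directions, as all genes did. Of 11 tested genes 2 rose, 5 fell and 4 were not called in SEN against NC, with a median of -0.14 (1 higher and 8 lower with total counts). Over all genes tested 37.6% were called higher and 38.5% lower under TMM. Hdac1 rose from 147 ± 7 to 182 ± 6.66 CPM (log2 change 0.77 ± 0.06) and Hdac10, a polyamine deacetylase gene, fell from 18 ± 1.03 to 4.62 ± 0.408 CPM (log2 change -1.51 ± 0.09). Hdac2 was called higher under TMM at 0.50, but was at 0.04 with total counts (adjusted p = 0.426). Hdac7, Hdac3 and Hdac8 had log2 changes of -0.54, -0.29 and -0.33, and Hdac4, named after its value was seen, one of -0.31. The highest log2 change of the 11, that of Hdac1, compares with 3.10 for Sirt1.

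Lysine acetyltransferases, the enzymes that add what sirtuins remove, had calls in both directions as well. Of 10 tested genes 5 rose and 4 fell in SEN against NC (2 and 5 with total counts), with a median of 0.12. The coactivator genes Crebbp and Ep300 rose by log2 changes of 1.02 ± 0.07 and 0.87 ± 0.12, and Kat7, Kat2a, Kat8 and Hat1 had log2 changes of -1.23, -0.47, -0.46 and -0.32. Kat6b and Kat6a were called higher under TMM at 0.54 and 0.43 and were at 0.08 and -0.02 with total counts. Kat6a was at 0.17 once the length trend was removed (adjusted p = 0.0536, edgeR). Kat2b, named after its value was seen, was called higher at 0.31 under TMM. Its mean CPM was lower in SEN, at 37.5 ± 1.59 in NC and 34 ± 4.4 in SEN, with ranges that overlapped. In BNPMT against NC 7 of the 10 were lower and 2 higher, with a median of -0.41. Among all genes tested 26.5% were called lower there and 26.3% higher. Crebbp stood at 52.2 ± 2.95 CPM in NC and 34.6 ± 2.76 CPM in BNPMT in that comparison.

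Of 23 tested regulators and nuclear substrates of SIRT1, 13 rose and 4 fell in SEN against NC, with a median log2 change of 0.35 under TMM and -0.10 with total counts, where 8 rose and 9 fell. Foxo3, a forkhead factor that SIRT1 deacetylates, rose from 58.6 ± 0.766 to 194 ± 9.55 CPM (log2 change 2.18 ± 0.07). Suv39h1, a histone methyltransferase gene, rose by 1.29 ± 0.06, the clock factor gene Bmal1 by 1.10 ± 0.06 and Foxo4 by 0.80 ± 0.06. Ccar2, which encodes the inhibitor of SIRT1 known as DBC1, went from 62.3 ± 1.96 CPM down to 14.7 ± 0.147 (log2 change of -1.63 ± 0.06, adjusted p = 1.84e-11, edgeR) and was at 66.8 ± 2.40 CPM in BNPMT. Rps19bp1, described as an activator of SIRT1, fell by 0.71 on the log2 scale, and Usp22 and Prkaa1 had log2 changes of -0.22 and -0.27. The Prkaa1 call ended when NC 2, SEN 1 or SEN 3 was left out (adjusted p of 0.0562, 0.0899 and 0.053). It also ended with DESeq2 size factors (-0.22, adjusted p = 0.0628) and by the DESeq2 Wald test (-0.23, adjusted p = 0.0538). In BNPMT against SEN 4 of the 23 were higher and 15 lower under TMM (9 and 10 with total counts).

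Enzymes described as substrates of the mitochondrial sirtuins also had calls in both directions. Of 15 tested genes 6 rose and 7 fell in SEN against NC, with a median of -0.06 (3 and 10 with total counts). Ppif, which encodes cyclophilin D of the permeability transition pore, rose from 8.12 ± 0.664 to 40.7 ± 2.26 CPM (log2 change 2.78 ± 0.08), Sod2, the mitochondrial superoxide dismutase gene, by 1.39 ± 0.07, and Glud1, the glutamate dehydrogenase gene, by 1.34 ± 0.05. Pdha1 was called higher at 0.57 under TMM and was at 0.12 with total counts (adjusted p = 0.0822). Sdha, a subunit gene of respiratory complex II, fell from 107 ± 3.06 to 34.7 ± 1.66 CPM (log2 change -1.18 ± 0.06), and Mlycd, Shmt2 and Mrpl10 fell by 1.10, 1.06 and 0.77. In BNPMT against NC 10 of the 15 were higher, 2 were lower and the median was 0.31, beside 26.3% of all genes tested that were called higher there. With the length trend taken out 7 were higher, 3 lower and the median was 0.12.

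**Figure D5:**
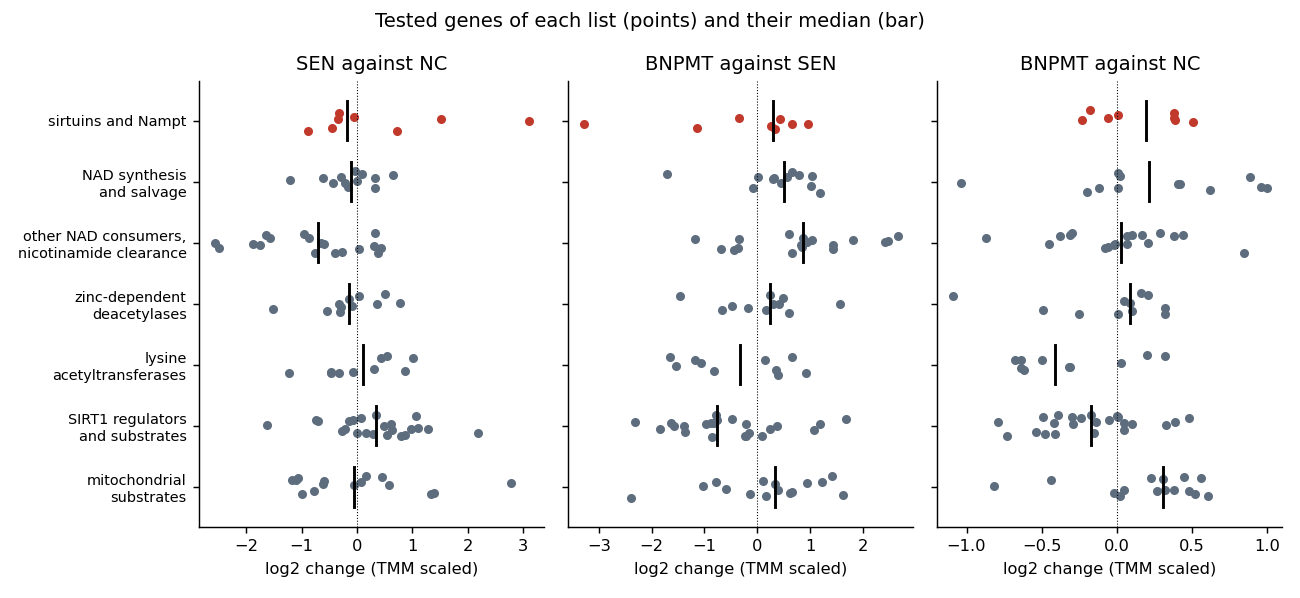
Log2 change (TMM scaled) of each tested gene of the 6 related lists (grey points) and of the sirtuins and Nampt (red points) in the 3 comparisons, with the median of each list as a black bar. The median of the other NAD consumers lies at -0.71 in SEN against NC, and that of the sirtuins and Nampt at -0.19.

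The genes most like each member over the 9 libraries were taken by Pearson's r of TMM-scaled log2 CPM among 10182 genes, as a description over libraries that belong to only 3 groups. Slc16a1 and Wsb1 were most like Sirt1, at r = 0.9990 and 0.9989, with mean levels of 63.8, 440 and 58.8 CPM for Slc16a1 in NC, SEN and BNPMT. Abhd5 and Mmp13 were most like Nampt, at 0.9976 and 0.9975, and Vcp and Nt5c most like Sirt2, at 0.9919 and 0.9916. For Sirt6 they were Ercc4 and Armh3, at 0.9947 and 0.9942, and for Sirt7 Apoo and Emc2, at 0.9926 and 0.9902. For Sirt5 they were Mrpl54 and Snrpb, at 0.9876 and 0.9820. With CPM per total count, a setting added after the data were seen, r for Sirt2 was 0.62 with Vcp and 0.83 with Nt5c, so its likeness rests on the TMM scale, whereas the pairs named for the other members had 0.98 or more. Under TMM the highest values were lower for the least abundant members, at 0.9720 for Sirt4 with Spidr and 0.9581 for Sirt3 with Airim.

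In RefSeq's GRCr8 annotation 6 of the 8 members overlapped no other gene. Sirt2 overlapped LOC103689966, with a mean of 3.05 CPM for NC and 6.09 CPM for SEN, and Sirt4 overlapped 2 small nuclear RNA genes. The strandedness of the counting is not known from the labels, and reads of Sirt2 and that neighbour cannot be told apart with certainty.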

How the data were processed

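Poly(A) RNA libraries of NC, SEN and BNPMT cells were analysed from the deposited tables. The authors deposited whole-number counts per gene, and an FPKM table that equals the count over gene length and library total (largest relative difference in the implied length 1.76e-13). Per-sample FPKM files repeat it (largest difference 1.02e-07). HISAT2, HTSeq, fastp and, as build, mRatBN7.2 are listed in the submitters' processing notes. Tool versions, annotation and strandedness: not given in the sources used here. Libraries held 31206834 to 41971877 counts, and a count of 3 is worth 0.0715 to 0.0961 CPM. No pair of libraries was a duplicate (chi-square per degree of freedom 3.51 to 33.5 within groups).

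The 14956 genes kept by filterByExpr were fitted with edgeR 4.0.16 in R 4.3.3, with TMM scaling and a mean for each of the 3 groups over all 9 libraries. SE values are the log2 change over the root of the F statistic. Alternatives were DESeq2 size factors, total counts alone, DESeq2 1.42.0 with its Wald test, no low-count filter, 1 CPM in 3 libraries, fits of 2 groups, a replicate block, limma 3.58.1 on log2(FPKM + 1) and log2(FPKM + 0.1), which understates changes of low genes, a loess curve on gene length, and leaving out libraries. The code was tested on simulated data.

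The members and lists were chosen with earlier results of these data known. Named were all 8 members, of each of 6 lists up to 4 genes a direction with the smallest adjusted p in SEN against NC among those called with a mean of at least 5 CPM, and the 2 genes most like each member by TMM-scaled log2 CPM (prior count 2). Promoters matched 6 of the 8 members, all but Sirt6 and Nampt.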

Additional observations from a re-analysis of the deposited data

How the results depend on the processing

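Of 480 member values over 20 alternatives 455 kept direction and side of the threshold, 9 lost the call, 6 gained it and 10 changed sign. The calls of Sirt1, Nampt, Sirt6 and Sirt7 in both comparisons with SEN were kept throughout, Sirt1 at 2.50 to 3.16 for SEN against NC and -3.38 to -2.61 for BNPMT against SEN. In BNPMT against SEN Sirt2 was 0.16 with total counts and with both FPKM alternatives. In SEN against NC Sirt5 was 0.004 with DESeq2 size factors. In BNPMT against NC Sirt6 was -0.001 with DESeq2 size factors, -0.002 with the Wald test, -0.09 with the length trend taken out, -0.02 to 0.03 without a single library (-0.02 without NC 2), -0.003 without BNPMT 2 and -0.001 without SEN 1 and BNPMT 1, all beside 0.01, and the cause was not tested. In that comparison 1 member was called lower with the length trend taken out and 1 without SEN 1 and BNPMT 1. Genes called ranged from 11070 to 11928, 11758 to 12299 and 6537 to 8525 in the 3 comparisons when a single library was left out. Among the other named genes, with total counts and the FPKM alternatives log2(FPKM + 1) and log2(FPKM + 0.1), SEN against NC turned to -0.08, -0.07 and -0.08 for Parp6, -0.03, -0.02 and -0.03 for Parp8, -0.14, -0.13 and -0.14 for Tnks and -0.02, -0.03 and -0.04 for Kat6a, and BNPMT against SEN turned to 0.06 in each for Parp6, 0.14, 0.13 and 0.14 for Parp8, 0.02 in each for Hdac2, 0.34, 0.33 and 0.34 for Usp22 and 0.29, 0.25 and 0.28 for Prkaa1. With the length trend taken out Usp22 was 0.09 and Prkaa1 0.07 in BNPMT against SEN, where the median gene was at 0.26. Depth limits Sirt4 most, with 40 to 49 counts per SEN library.

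Equal replicate numbers did not pair the libraries: the correlations of their deviations from the group means were -0.24 to 0.06, and 5 of 18 best matches were with the same number. With a replicate block 11143, 11842 and 7348 genes were called in the 3 comparisons, and of the members' calls it ended that of Sirt3 in BNPMT against SEN (0.26, adjusted p = 0.0563) and changed no other.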

Other observations

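In the deposited KEGG annotation all 8 members belong to nicotinate and nicotinamide metabolism, which holds 30 other genes, 24 of them tested. Of these 24 genes 6 rose and 9 fell in SEN against NC, with a median log2 change of -0.11. With total counts 2 rose and 16 fell, beside 3667 called higher and 8513 lower of all 14956 genes tested. Over all genes tested 37.6% were called higher and 38.5% lower under TMM. The share of the 24 genes that fell was close to that of all genes, and the share that rose was smaller. In BNPMT against SEN 14 were higher and 7 lower, beside 40.7% and 39.9% of all genes, and in BNPMT against NC 8 were higher and 6 lower, beside 26.3% and 26.5%. With total counts 18 were higher and 2 lower in BNPMT against SEN, beside 8575 and 3857 of all 14956 genes tested. This annotation shares genes with the lists of NAD synthesis and of NAD consumers.

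Within libraries the FPKM ratio of Sirt1 to Sirt7 was 0.935, 1.15 and 1.20 in the NC libraries, 11.6, 16.7 and 10.9 in those of SEN, and 0.768, 0.640 and 0.635 in BNPMT. The ratio of Sirt1 to Nampt was 0.639 ± 0.0495 for NC, 1.91 ± 0.0709 for SEN and 0.435 ± 0.0263 for BNPMT (SD, n = 3). The ratio of Sirt3 to Sirt5 had 0.204 ± 0.0254, 0.169 ± 0.0177 and 0.151 ± 0.0100 in the same groups. The summed FPKM of the mitochondrial members Sirt3, Sirt4 and Sirt5 was 35.3, 34.6 and 36.3 in the NC libraries, 25.1, 23.7 and 22 in those of SEN, and 40.9, 45.1 and 47.9 in BNPMT. This sum is mostly Sirt5 and is per total count, a scale on which the median gene changed by -0.46 on the log2 scale in SEN against NC and on which the CPM ranges of 83.4% of all genes did not overlap there.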
